A study of Mus musculus with 6 samples.

Results

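B lymphocytes and their secretory descendants, the plasma cells, leave a characteristic set of transcripts in any RNA sample that contains them. A list of 31 such genes, out of 49315 counted, was followed here in sorted mouse CD4 T cells. The list was given by name and was matched to the gene identifiers of the count tables. It holds 15 B-cell genes, 5 genes of MHC class II antigen presentation and 11 plasma-cell and immunoglobulin genes. Every gene had counts in all 6 libraries. A level of at least 2 TMM CPM (counts scaled to library size with edgeR's trimmed mean of M-values) and 10 counts in at least 1 library was reached by 28 of the 31, and the other 3, Pax5, Ebf1 and Fcrla, are given as levels only.

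The T cells carried a transgenic receptor, named CBir1 TCR Tg in the labels, which recognises a flagellin of gut bacteria. All 6 samples are labelled as spleen cells of the C57BL/6 strain, with 1 library per condition. In 5 of them, CD45.1 donor cells lacking CD44 had been given to CD45.2 mice on day 0, and recipients were immunised on days 1 and 7 with CBir1 flagellin (50 ug) plus CT (1 ug). Next, the MEP1+Metformin+Rapamycin, MEP1+Rapamycin, MEP1+Metformin and MEP1+CMC groups had 3 ug of MEP1, a peptide of several epitopes from commensal antigens, on days 28 and 35, each time followed for 5 days by both inhibitors in CMC, rapamycin in CMC, metformin in CMC, or the vehicle CMC alone. No treatment recipients were left without MEP1 and inhibitors at that stage. All recipients were given 3 ug of MEP1 on day 56 and killed on day 63, when the remaining donor cells were sorted from the spleen. The sixth library is the naïve CD4 control, described by the labels only as naive cells of the same transgenic type, so it did not pass through a recipient as far as the labels say. Neither the gate of the sort nor the number of mice behind a library was stated in the sources used here.

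Total counts ranged from 26139000 in the naïve CD4 control to 60622310 in No treatment. The libraries matched their label in T-cell genes, with Cd3e, a chain of the T-cell receptor complex, at 745 to 1481 TMM CPM and Cd4 at 557 to 1116 TMM CPM. One contradiction concerns No treatment: the heading of its counts says that there was no challenge, whereas its label and protocol include one. The label was followed. Xist, which is transcribed from the inactive X chromosome, had 0.323, 0.486 and 0.218 TMM CPM in MEP1+Metformin+Rapamycin, MEP1+Rapamycin and MEP1+Metformin, against 262 in MEP1+CMC, 24.2 in No treatment and 43.1 in the naïve CD4 control. Each comparison of an inhibitor with MEP1+CMC therefore also sets libraries of unlike Xist level against each other, and those 2 differences cannot be told apart. The same holds for the MEP1 libraries against No treatment, and for the transferred libraries against the naïve CD4 control. With 1 library per condition there was no replicate spread for any pair. Intervals given for single values and ratios are exact and at 95%, and they cover counting error only. Nor can fewer cells of a type and less RNA per cell be told apart in such samples.

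B cells bind antigen through a surface immunoglobulin whose signal passes through the CD79 chains, and they present antigen to CD4 T cells on MHC class II molecules. When they become plasma cells they lose most of their surface receptors, turn on the secretion machinery and make immunoglobulin transcripts in very large amounts. In the mouse, class II molecules are also made by macrophages and dendritic cells, while resting T cells are not known to make them. Transcripts of the immunoglobulin mu constant gene without a rearranged variable part are known in T cells.

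Of the 15 B-cell genes 7 were highest in the naïve CD4 control and 5 in MEP1+Metformin+Rapamycin, on the TMM scale. The share of all genes that were highest in each library was not counted, here or for the other lists. Cd79a, Cd79b and Ms4a1 were highest in the naïve CD4 control and next highest in MEP1+Metformin+Rapamycin. Cd79a (chromosome 7, 24897381 to 24902197), which encodes a signalling chain of the B-cell receptor, had 16.4 TMM CPM in MEP1+Metformin+Rapamycin, 7.20 in MEP1+Rapamycin, 4.40 in MEP1+Metformin, 7.23 in MEP1+CMC, 6.46 in No treatment and 38.2 in the naïve CD4 control. Its partner chain Cd79b (chromosome 11, 106311341 to 106314762) had 17.3 TMM CPM in MEP1+Metformin+Rapamycin, 6.10 in MEP1+Rapamycin, 4.10 in MEP1+Metformin, 7.27 in MEP1+CMC, 8.64 in No treatment and 30.6 in the naïve CD4 control. Both genes had the same 2 libraries on top and MEP1+Metformin at the bottom. Ms4a1 (chromosome 19, 11249675 to 11266241), which encodes the B-cell surface protein CD20, had 9.99 TMM CPM in MEP1+Metformin+Rapamycin, 2.91 in MEP1+Rapamycin, 1.21 in MEP1+Metformin, 3.00 in MEP1+CMC, 2.29 in No treatment and 16.6 in the naïve CD4 control. Ms4a1 had the same libraries at the top and the bottom, and its count per count of Cd79a was 0.609 in MEP1+Metformin+Rapamycin, 0.404 in MEP1+Rapamycin, 0.275 in MEP1+Metformin, 0.415 in MEP1+CMC, 0.355 in No treatment and 0.434 in the naïve CD4 control.

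Cr2, the complement receptor found on marginal-zone and follicular B cells, did not keep to this order. It had 10.5 TMM CPM in MEP1+Metformin+Rapamycin, 0.593 in MEP1+Rapamycin, 1.75 in MEP1+Metformin, 4.91 in MEP1+CMC, 1.13 in No treatment and 7.54 in the naïve CD4 control. MEP1+Rapamycin was lowest for Cr2 although its Cd79a level was close to that of MEP1+CMC. Fcer2a, the low-affinity IgE receptor CD23, had 3.51 TMM CPM in MEP1+Metformin+Rapamycin, 0.620 in MEP1+Rapamycin, 0.178 in MEP1+Metformin, 0.750 in MEP1+CMC, 0.452 in No treatment and 5.98 in the naïve CD4 control. Blk, a Src-family kinase of the B-cell receptor, ranged from 0.635 TMM CPM in MEP1+Metformin to 5.60 in the naïve CD4 control, with 5.08 in MEP1+Metformin+Rapamycin. Spib, an Ets-family transcription factor, ranged from 1.42 TMM CPM in No treatment to 10.3 in the naïve CD4 control. The transcription factors Pax5 and Ebf1, which set B-cell identity, lay at 0.171 to 1.43 and 0.469 to 1.40 TMM CPM, and Fcrla, an intracellular Fc-receptor-like protein, at 0.357 to 1.99 TMM CPM.

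A further 5 B-cell genes did not follow Cd79a. Cd22, an inhibitory co-receptor, had 25.6 TMM CPM in MEP1+Metformin+Rapamycin, 14.4 in MEP1+Rapamycin, 19.6 in MEP1+Metformin, 29.0 in MEP1+CMC, 9.99 in No treatment and 6.14 in the naïve CD4 control, so the library highest for Cd79a was the lowest for Cd22. The count of Cd22 per count of Cd79a was 1.56 in MEP1+Metformin+Rapamycin, 2.00 in MEP1+Rapamycin, 4.45 in MEP1+Metformin, 4.01 in MEP1+CMC, 1.55 in No treatment and 0.161 in the naïve CD4 control. Cd72, another inhibitory receptor, was highest in MEP1+Rapamycin at 28.8 TMM CPM and lowest in No treatment at 7.87 TMM CPM. The adaptor Blnk was highest in No treatment at 7.26 TMM CPM and lowest in MEP1+Metformin at 1.59 TMM CPM. Bank1, a scaffold protein of receptor signalling, and Pou2af1, a coactivator of octamer-binding factors, had the narrowest ranges, at 5.45 to 10.5 and 14.0 to 22.2 TMM CPM. The sum over the 15 genes was 151 TMM CPM in MEP1+Metformin+Rapamycin, 89.5 in MEP1+Rapamycin, 74.2 in MEP1+Metformin, 102 in MEP1+CMC, 80.1 in No treatment and 174 in the naïve CD4 control. Per count of 18 T-cell identity genes in place of TMM scaling, this sum in the naïve CD4 control was 0.752 times that in MEP1+Metformin, and 2.06 times without the T-cell receptor genes Trbc1 and Trbc2. The top place of the naïve CD4 control was also lost by library totals, with 167 CPM in MEP1+Metformin+Rapamycin against 124 in the naïve CD4 control. Without Cd22, Cd72, Bank1 and Pou2af1, an omission chosen after the levels were seen, the 11 others summed to 77.2 TMM CPM in MEP1+Metformin+Rapamycin, 25.2 in MEP1+Rapamycin, 16.9 in MEP1+Metformin, 30.6 in MEP1+CMC, 30.0 in No treatment and 124 in the naïve CD4 control.

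**Figure D1:**
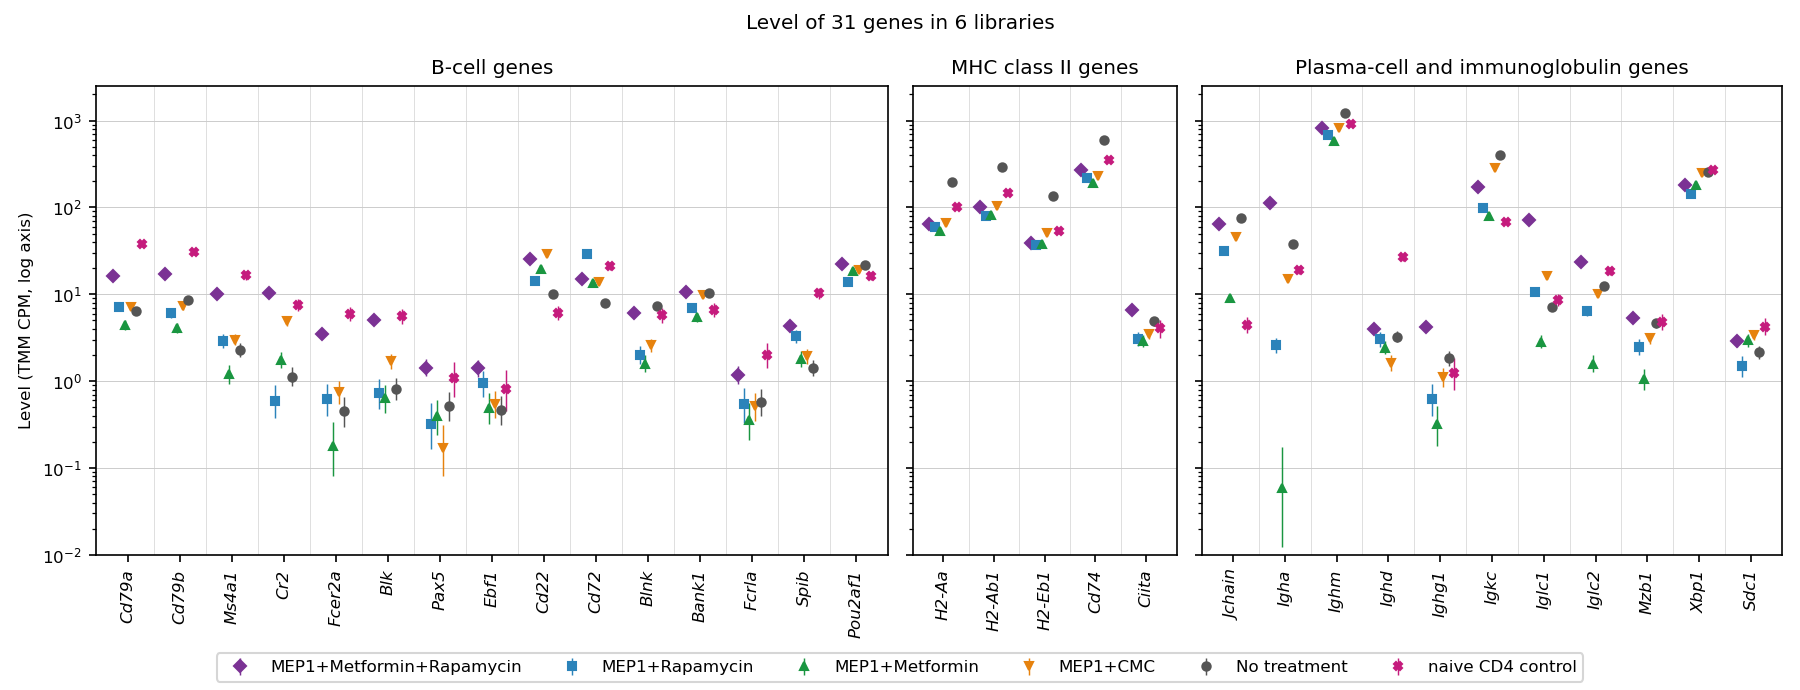
Level of each of the 31 genes in the 6 libraries, in TMM CPM on a log axis, with B-cell, MHC class II and plasma-cell and immunoglobulin genes in separate panels. Each symbol is 1 library and each bar its 95% counting interval. Cd79a and Ms4a1 are highest in the naïve CD4 control (38.2 and 16.6), 4 of the 5 class II genes are highest in No treatment, and Igha spans 0.0595 to 113.

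MHC class II genes followed another order, with the highest level of 4 of the 5 in No treatment and, on the TMM scale, the next in the naïve CD4 control. H2-Ab1 (chromosome 17, 34263209 to 34269418), the beta chain of the I-A molecule, had 101 TMM CPM in MEP1+Metformin+Rapamycin, 78.8 in MEP1+Rapamycin, 82.8 in MEP1+Metformin, 104 in MEP1+CMC, 291 in No treatment and 148 in the naïve CD4 control. H2-Aa, its alpha chain (chromosome 17, 34282744 to 34287827), had 64.9 TMM CPM in MEP1+Metformin+Rapamycin, 58.9 in MEP1+Rapamycin, 53.6 in MEP1+Metformin, 65.8 in MEP1+CMC, 194 in No treatment and 101 in the naïve CD4 control. The 4 MEP1 libraries lay below No treatment for H2-Ab1 and H2-Aa, and on the TMM scale also below the naïve CD4 control. H2-Eb1, a beta chain of the I-E molecule, had 39.3 TMM CPM in MEP1+Metformin+Rapamycin, 37.1 in MEP1+Rapamycin, 37.9 in MEP1+Metformin, 50.5 in MEP1+CMC, 137 in No treatment and 53.0 in the naïve CD4 control. The invariant chain Cd74, which guides class II molecules to their loading compartment, had 273 TMM CPM in MEP1+Metformin+Rapamycin, 221 in MEP1+Rapamycin, 190 in MEP1+Metformin, 232 in MEP1+CMC, 605 in No treatment and 353 in the naïve CD4 control. These 4 genes moved together, and the count of H2-Aa per count of H2-Ab1 stayed between 0.634 and 0.747 in all 6 libraries. Ciita, the coactivator that turns the class II genes on, did not share the order and was highest in MEP1+Metformin+Rapamycin at 6.56 TMM CPM, against 4.90 in No treatment and 4.04 in the naïve CD4 control. The place of the naïve CD4 control depended on the scaling. By library totals the 5 genes summed to 539 CPM in MEP1+Metformin+Rapamycin and 1170.0 CPM in No treatment, against 469 CPM in the naïve CD4 control. For each 1000 counts of T-cell identity genes they summed to 7.54 to 11.3 counts in the 4 MEP1 libraries and 21.1 in No treatment, against 5.24 in the naïve CD4 control, the lowest of the 6.

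Class II genes are known to be switched on through an X box and a Y box close to their start, to which RFX and NF-Y proteins bind and onto which Ciita assembles. The promoter windows of the alpha chain of I-A and the beta chain of I-E, 300 bases each on GRCm38.p6 from RefSeq, are printed because these genes moved together. Capitals mark an X-box core (GCAACT) and a Y box (CTGATTGG), letters picked after reading the windows.
H2-Aa, chr17:34287774-34288073, minus strand: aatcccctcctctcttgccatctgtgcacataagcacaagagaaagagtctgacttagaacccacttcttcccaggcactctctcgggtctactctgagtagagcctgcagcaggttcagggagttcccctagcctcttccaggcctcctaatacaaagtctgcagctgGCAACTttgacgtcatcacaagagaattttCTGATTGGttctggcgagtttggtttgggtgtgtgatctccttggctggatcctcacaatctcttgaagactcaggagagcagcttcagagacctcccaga
H2-Eb1, chr17:34305617-34305916, plus strand: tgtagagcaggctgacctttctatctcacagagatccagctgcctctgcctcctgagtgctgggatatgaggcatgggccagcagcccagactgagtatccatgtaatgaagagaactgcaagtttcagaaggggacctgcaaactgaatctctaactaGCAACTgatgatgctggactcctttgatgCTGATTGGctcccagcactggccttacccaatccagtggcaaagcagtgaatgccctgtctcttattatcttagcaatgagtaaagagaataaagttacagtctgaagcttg
The X-box core lay 81 bases before the start of H2-Aa and 91 before that of H2-Eb1, with 24 and 23 bases between it and the Y box. On either strand, 10.9% of 32851 promoter windows held the X-box core, 4.1% held the Y box and 0.466% held both. Of the 31 genes, 17 had a promoter entry, and the class II genes H2-Ab1, Cd74 and Ciita had none. Among the 20 windows of those 17, only those of H2-Aa and H2-Eb1, from which the letters were picked, held both. A match describes these letters and is not evidence of binding.

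The fall of class II transcripts in the MEP1 libraries passed a test across libraries. An edgeR quasi-likelihood model set the 4 MEP1 libraries against No treatment, with Benjamini-Hochberg adjustment over 12838 genes, of which 1.9% were called (0.6% higher and 1.3% lower). Of the 28 genes, 4 were lower and 0 higher. An unadjusted p below 0.05 was found for 7 of them, a count not comparable with that 1.9%. The share of all genes below the unadjusted level was not counted. The log2 fold change was -1.68 for H2-Aa (SE 0.18, adjusted p = 0.0029), -1.67 for H2-Ab1 (SE 0.20, adjusted p = 0.0051), -1.73 for H2-Eb1 (SE 0.20, adjusted p = 0.0044) and -1.40 for Cd74 (SE 0.22, adjusted p = 0.018). Each was lower in 4 of 4 MEP1 libraries and was called under all 10 alternatives run, with the highest adjusted p at 0.047 for Cd74. Ciita had a log2 fold change of -0.28 (SE 0.47, adjusted p = 0.78). The median over the 28 genes was -0.24 and that over all genes tested -0.08. Among 9 further class II genes, 8 were tested and 1 was lower, H2-DMb1, a chain of the peptide-loading molecule, at -1.81 (SE 0.30, adjusted p = 0.020), a call kept under 9 of the 10 alternatives. Since No treatment is 1 library, its own spread was taken to equal that of the MEP1 libraries, and whether it was challenged is in doubt from its heading. Its Xist level (24.2 TMM CPM) also differed from that of MEP1+CMC (262) and of the inhibitor libraries (0.218 to 0.486). That difference cannot be told apart from MEP1.

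Macrophage transcripts moved the same way as class II in this comparison. The 16 macrophage genes summed to 554 TMM CPM in MEP1+Metformin+Rapamycin, 430 in MEP1+Rapamycin, 498 in MEP1+Metformin, 721 in MEP1+CMC, 3342 in No treatment and 65.8 in the naïve CD4 control, where 3 of them (Marco, Cd14 and Fcgr1) were at 0. In the same model 13 of the 16 were lower in the MEP1 libraries, and the complement gene C1qa had a log2 fold change of -2.32 (SE 0.19, adjusted p = 0.00094). Their part in the class II result was not tested. The count of H2-Ab1 per count of C1qb, another complement gene of macrophages, was 2.01 in MEP1+Metformin+Rapamycin, 1.43 in MEP1+Rapamycin, 2.52 in MEP1+Metformin, 1.95 in MEP1+CMC, 1.32 in No treatment and 23.5 in the naïve CD4 control. The count of H2-Ab1 per count of Cd79a was 6.18 in MEP1+Metformin+Rapamycin, 10.9 in MEP1+Rapamycin, 18.8 in MEP1+Metformin, 14.4 in MEP1+CMC, 45.1 in No treatment and 3.88 in the naïve CD4 control. The ratio to C1qb was thus highest in the naïve CD4 control and lowest in No treatment, and the ratio to Cd79a the reverse. Which cells the class II transcripts came from was not tested. Erythroid genes were also highest in No treatment, with 7 genes summing to 52.8 TMM CPM in MEP1+Metformin+Rapamycin, 91.5 in MEP1+Rapamycin, 52.7 in MEP1+Metformin, 360 in MEP1+CMC, 1698 in No treatment and 382 in the naïve CD4 control.

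**Figure D2:**
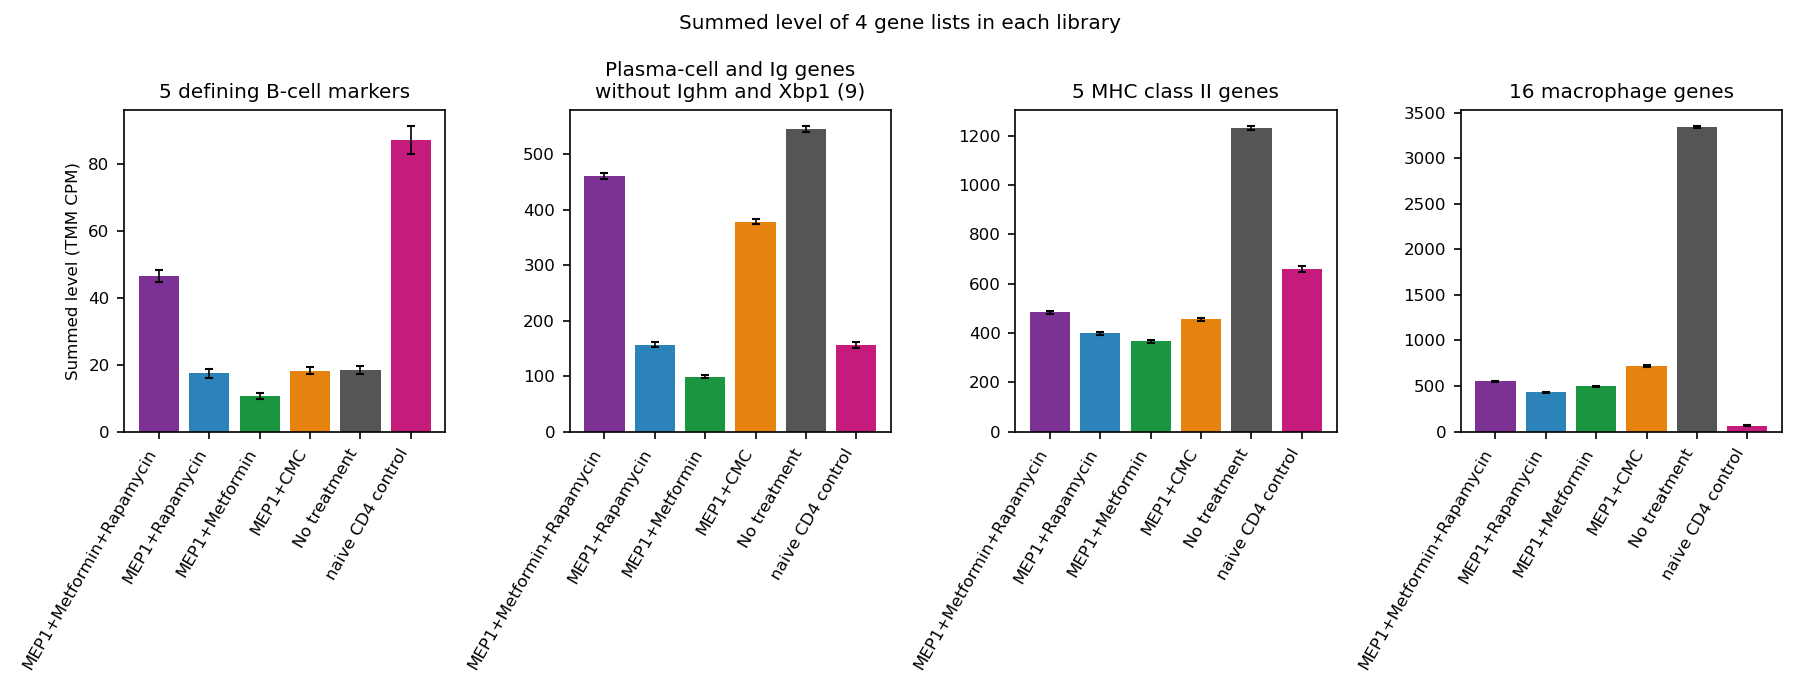
Summed level (TMM CPM, axes from 0) of 5 defining B-cell markers (Cd79a, Cd79b, Ms4a1, Pax5 and Ebf1), 9 plasma-cell and immunoglobulin genes without Ighm and Xbp1, 5 class II genes and 16 macrophage genes in each library, with 95% counting intervals. On this scale the B-cell markers are highest in the naïve CD4 control (87.3) and the other sums in No treatment (545, 1232 and 3342); for each 1000 counts of T-cell identity genes, MEP1+Metformin+Rapamycin leads for the B-cell markers (1.09, against 0.693 in the naïve CD4 control) and for the plasma-cell and immunoglobulin genes (10.8, against 9.31 in No treatment).

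On the TMM scale, 5 of the 11 plasma-cell and immunoglobulin genes were highest in MEP1+Metformin+Rapamycin, 3 in No treatment and 3 in the naïve CD4 control. The place of the naïve CD4 control again depended on the scaling. The 11 genes summed to 1348 TMM CPM there and 870 in MEP1+Metformin. By library totals they summed to 958 CPM in the naïve CD4 control, the lowest sum, against 989 in MEP1+Metformin. Jchain and Igkc were highest in No treatment and lowest in the naïve CD4 control. Jchain (chromosome 5, 88519809 to 88527891), which links secreted IgA and IgM into polymers, had 64.3 TMM CPM in MEP1+Metformin+Rapamycin, 31.7 in MEP1+Rapamycin, 8.98 in MEP1+Metformin, 46.0 in MEP1+CMC, 75.4 in No treatment and 4.47 in the naïve CD4 control. Igkc, the kappa light-chain constant gene (chromosome 6, 70726435 to 70726966), had 172 TMM CPM in MEP1+Metformin+Rapamycin, 97.6 in MEP1+Rapamycin, 78.9 in MEP1+Metformin, 282 in MEP1+CMC, 400 in No treatment and 67.7 in the naïve CD4 control. Both genes had MEP1+Metformin as the lowest of the 5 transferred libraries. The count of Jchain per count of Cd79a was 3.92 in MEP1+Metformin+Rapamycin, 4.40 in MEP1+Rapamycin, 2.04 in MEP1+Metformin, 6.36 in MEP1+CMC, 11.7 in No treatment and 0.117 in the naïve CD4 control. The count of Igkc per count of Cd79a was 10.5 in MEP1+Metformin+Rapamycin, 13.6 in MEP1+Rapamycin, 17.9 in MEP1+Metformin, 38.9 in MEP1+CMC, 61.9 in No treatment and 1.77 in the naïve CD4 control. Both ratios were lowest in the naïve CD4 control, in which the defining plasma-cell receptor gene Tnfrsf17 was at 0.

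The other secretion genes varied less. Mzb1, an endoplasmic reticulum chaperone partner of marginal-zone B cells and plasma cells, ranged from 1.05 TMM CPM in MEP1+Metformin to 5.27 in MEP1+Metformin+Rapamycin. Sdc1, the plasma-cell surface proteoglycan CD138, ranged from 1.48 TMM CPM in MEP1+Rapamycin to 4.25 in the naïve CD4 control. Xbp1, a transcription factor of the secretory programme that many cell types use, had 183 TMM CPM in MEP1+Metformin+Rapamycin, 144 in MEP1+Rapamycin, 182 in MEP1+Metformin, 250 in MEP1+CMC, 255 in No treatment and 269 in the naïve CD4 control. It did not follow Jchain.

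Ighm, the mu constant gene (chromosome 12, 113418558 to 113422730), also varied little. It had 820 TMM CPM in MEP1+Metformin+Rapamycin, 687 in MEP1+Rapamycin, 589 in MEP1+Metformin, 822 in MEP1+CMC, 1223 in No treatment and 923 in the naïve CD4 control. Per kilobase of exon, Ighm stood at 489 TMM CPM in the naïve CD4 control and Igkc at 127, while in No treatment Ighm stood at 648 and Igkc at 753. The count of Ighm per count of Igkc was 4.77 in MEP1+Metformin+Rapamycin, 7.03 in MEP1+Rapamycin, 7.46 in MEP1+Metformin, 2.92 in MEP1+CMC, 3.05 in No treatment and 13.6 in the naïve CD4 control. Heavy-chain variable segments gave 0.0804 counts per count of Ighm in MEP1+Metformin+Rapamycin, 0.0408 in MEP1+Rapamycin, 0.0337 in MEP1+Metformin, 0.101 in MEP1+CMC, 0.0828 in No treatment and 0.0218 in the naïve CD4 control. Kappa variable segments gave 0.524 to 0.684 counts per count of Igkc in the 6 libraries. The heavy-chain ratio is not of the same kind, as heavy-chain variable segments also join the constant genes of IgA, IgG and IgE. Those constant genes held 8199 counts in MEP1+Metformin+Rapamycin and 4836 in MEP1+CMC, against 43 in MEP1+Metformin and 462 in the naïve CD4 control. Ighd, the delta constant gene of naive B cells, had 4.02 TMM CPM in MEP1+Metformin+Rapamycin, 3.02 in MEP1+Rapamycin, 2.44 in MEP1+Metformin, 1.62 in MEP1+CMC, 3.25 in No treatment and 26.6 in the naïve CD4 control.

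Of the 31 genes Igha differed most between libraries, while Ighg1 spanned a smaller range than several B-cell genes. Igha, the constant gene of IgA (chromosome 12, 113254830 to 113260236), had 113 TMM CPM in MEP1+Metformin+Rapamycin, 2.59 in MEP1+Rapamycin, 0.0595 in MEP1+Metformin, 15.2 in MEP1+CMC, 37.8 in No treatment and 19.3 in the naïve CD4 control. These levels rest on 6283 counts in MEP1+Metformin+Rapamycin and on 3 counts in MEP1+Metformin. Ighg1, the constant gene of IgG1, had 4.23 TMM CPM in MEP1+Metformin+Rapamycin, 0.620 in MEP1+Rapamycin, 0.317 in MEP1+Metformin, 1.11 in MEP1+CMC, 1.82 in No treatment and 1.24 in the naïve CD4 control. Over all 6 switched constant genes (Igha, Ighg1, Ighg2b, Ighg2c, Ighg3 and Ighe), Igha took 76.6% of 8199 counts in MEP1+Metformin+Rapamycin (75.7% to 77.5%), 32.4% of 296 in MEP1+Rapamycin (27.1% to 38.1%), 6.98% of 43 in MEP1+Metformin (1.46% to 19.1%), 18.4% of 4836 in MEP1+CMC (17.3% to 19.5%), 55.2% of 3940 in No treatment (53.6% to 56.7%) and 77.5% of 462 in the naïve CD4 control (73.4% to 81.2%). The leading isotype was not the same in every library. In MEP1+CMC it was Ighg3, with 3524 counts or 72.9%, while Igha was followed by Ighg2c in No treatment, with 994 counts or 25.2%. MEP1+Metformin held too few switched counts to order its isotypes.

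**Figure D3:**
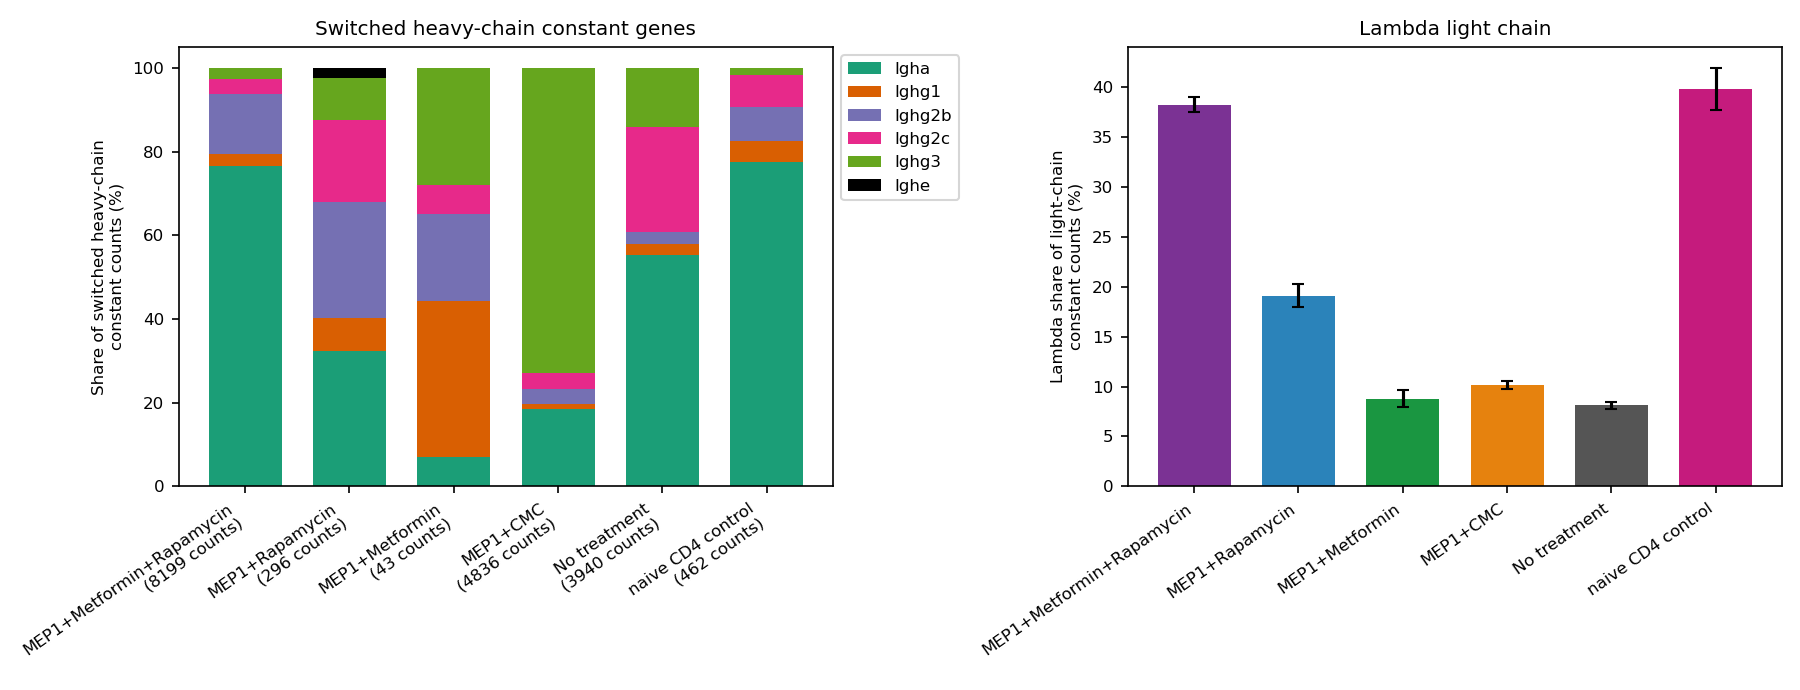
Left, share of each switched heavy-chain constant gene among the switched counts of a library, in percent, with the number of counts under each bar. Right, lambda share of light-chain constant counts in percent, with 95% Clopper-Pearson intervals. Igha leads in MEP1+Metformin+Rapamycin (76.6%), Ighg3 leads in MEP1+CMC (72.9%), and the 2 highest lambda shares are those of MEP1+Metformin+Rapamycin (38.3%) and the naïve CD4 control (39.8%).

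Light-chain class was uneven as well. The lambda share of light-chain constant counts was 38.3% in MEP1+Metformin+Rapamycin, 19.1% in MEP1+Rapamycin, 8.76% in MEP1+Metformin, 10.1% in MEP1+CMC, 8.12% in No treatment and 39.8% in the naïve CD4 control. Iglc1, a lambda constant gene that is usually joined to Iglv1, had 71.9 TMM CPM in MEP1+Metformin+Rapamycin, 10.7 in MEP1+Rapamycin, 2.86 in MEP1+Metformin, 16.1 in MEP1+CMC, 7.06 in No treatment and 8.61 in the naïve CD4 control. Iglc2 had 23.3 TMM CPM in MEP1+Metformin+Rapamycin, 6.34 in MEP1+Rapamycin, 1.59 in MEP1+Metformin, 10.03 in MEP1+CMC, 12.5 in No treatment and 18.7 in the naïve CD4 control. Within lambda, Iglc1 took 67.5% of the constant counts of MEP1+Metformin+Rapamycin and 19.3% of those of the naïve CD4 control, although the lambda share of both libraries was alike. The first 300 coding bases of the lambda constant genes (GENCODE M21, GRCm38) are printed because Iglc2 and Iglc3 are near copies, so that their reads may be divided unevenly. Capitals mark bases unlike Iglc2 in the alignment.
Iglc1, chr16:19061772-19062071, minus strand: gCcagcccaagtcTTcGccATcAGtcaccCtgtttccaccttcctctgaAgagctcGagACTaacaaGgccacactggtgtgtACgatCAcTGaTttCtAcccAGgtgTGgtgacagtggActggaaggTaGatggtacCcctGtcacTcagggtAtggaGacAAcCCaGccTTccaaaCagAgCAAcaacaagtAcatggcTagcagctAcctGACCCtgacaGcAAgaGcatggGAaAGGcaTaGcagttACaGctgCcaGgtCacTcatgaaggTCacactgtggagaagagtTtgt
Iglc2, chr16:19198554-19198853, minus strand: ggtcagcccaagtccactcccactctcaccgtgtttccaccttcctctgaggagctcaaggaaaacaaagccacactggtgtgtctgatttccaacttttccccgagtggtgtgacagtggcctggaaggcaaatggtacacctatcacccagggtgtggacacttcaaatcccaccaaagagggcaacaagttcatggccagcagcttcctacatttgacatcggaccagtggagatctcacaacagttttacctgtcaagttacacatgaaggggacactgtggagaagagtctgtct
Iglc3, chr16:19065382-19065681, minus strand: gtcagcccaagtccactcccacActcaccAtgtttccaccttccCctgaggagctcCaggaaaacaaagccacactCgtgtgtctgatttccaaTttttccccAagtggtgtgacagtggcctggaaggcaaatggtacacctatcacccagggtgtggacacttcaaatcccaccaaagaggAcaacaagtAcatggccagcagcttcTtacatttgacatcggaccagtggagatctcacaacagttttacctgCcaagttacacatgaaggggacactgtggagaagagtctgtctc
Identity over the coding region was 96.5% between Iglc3 and Iglc2 and 74.8% between Iglc1 and Iglc2. The level of Iglc1 is therefore better separated than the split between Iglc2 and Iglc3, which is uncertain.

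Each library was led by a different heavy-chain variable segment. In MEP1+Metformin+Rapamycin, Ighv1-31 held 2281 of 3678 heavy-chain variable counts, a share of 62.0% (60.4% to 63.6%). It had 1 count in MEP1+Rapamycin, 2 in MEP1+Metformin, 0 in MEP1+CMC, 55 in No treatment and 1 in the naïve CD4 control. MEP1+CMC was led by Ighv2-3, with 1742 of 4860 counts or 35.8%, a segment with 64 counts in MEP1+Metformin+Rapamycin, 5 in MEP1+Rapamycin, 3 in MEP1+Metformin, 45 in No treatment and 1 in the naïve CD4 control. The leaders elsewhere were Ighv1-69 in MEP1+Rapamycin (263 counts, 25.3%), Ighv1-82 in MEP1+Metformin (178 counts, 17.8%), Ighv1-62-2 in No treatment (743 counts, 12.8%) and Ighv8-12 in the naïve CD4 control (84 counts, 22.5%). Ighv1-62-2 is identical to Ighv1-71 over its coding bases, so its count is uncertain. The other leaders also had near copies, so their counts may be divided unevenly too. Ighv1-69 was 97.38% identical to Ighv1-59, Ighv8-12 96.35% to Ighv8-13 and Ighv1-82 96.07% to Ighv1-80. Ighv2-3 was 95.35% identical to Ighv2-9 and Ighv1-31 93.77% to Ighv1-34. The first 300 bases of the second coding exon are printed for the leaders of MEP1+Metformin+Rapamycin and MEP1+CMC, which held the largest heavy-chain shares (GENCODE M21, GRCm38), with capitals in Ighv2-3 for bases unlike Ighv1-31 in the alignment.
Ighv1-31, chr12:114829269-114829568, minus strand: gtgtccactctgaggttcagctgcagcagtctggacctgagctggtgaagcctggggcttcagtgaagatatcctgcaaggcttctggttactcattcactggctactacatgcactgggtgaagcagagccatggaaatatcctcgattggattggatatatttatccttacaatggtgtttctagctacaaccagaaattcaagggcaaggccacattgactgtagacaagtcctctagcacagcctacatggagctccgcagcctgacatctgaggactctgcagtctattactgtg
Ighv2-3, chr12:113611188-113611487, minus strand: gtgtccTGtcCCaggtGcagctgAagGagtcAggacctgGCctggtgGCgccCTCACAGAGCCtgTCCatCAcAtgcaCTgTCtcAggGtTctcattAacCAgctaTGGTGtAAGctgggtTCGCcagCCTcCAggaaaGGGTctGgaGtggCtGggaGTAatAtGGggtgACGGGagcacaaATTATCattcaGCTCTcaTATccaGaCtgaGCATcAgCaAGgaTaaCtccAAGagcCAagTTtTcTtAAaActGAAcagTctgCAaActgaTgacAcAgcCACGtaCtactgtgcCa
Their identity with each other was 58.5%, so these 2 leaders are not near copies of each other, though each has a near copy elsewhere. These are germline sequences of the reference and not those of the cells studied.

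Kappa variable segments were shared more between libraries. Igkv8-24 led both MEP1+Metformin+Rapamycin, with 3411 of 6549 counts or 52.1%, and MEP1+CMC, with 3104 of 10070 or 30.8%. Igkv5-39 led MEP1+Rapamycin, with 1157 of 2288 counts or 50.6%, and No treatment, with 3656 of 14812 or 24.7%, and held 2002 counts or 19.9% in MEP1+CMC. Igkv12-44 led MEP1+Metformin with 489 of 2087 counts or 23.4%, and Igkv4-55 led the naïve CD4 control with 52 of 799 or 6.51%. The inverse Simpson number, an effective number of segments that rises as counts are spread more evenly, was 3.46 for kappa in MEP1+Metformin+Rapamycin, 3.43 in MEP1+Rapamycin, 7.01 in MEP1+Metformin, 5.97 in MEP1+CMC, 11.6 in No treatment and 29.7 in the naïve CD4 control. For heavy chains it was 2.52 in MEP1+Metformin+Rapamycin, 6.92 in MEP1+Rapamycin, 10.9 in MEP1+Metformin, 6.21 in MEP1+CMC, 19.9 in No treatment and 13.7 in the naïve CD4 control. By this number the counts of the naïve CD4 control and of No treatment were spread most evenly. The heavy-chain value of the naïve CD4 control rests on only 374 counts, against 5825 in No treatment. At least 10 counts were reached there by 8 heavy-chain segments, against 43 in No treatment. The leading kappa segments also had close relatives, from 91.61% identity (Igkv5-39 and Igkv5-45) to 95.64% (Igkv12-44 and Igkv12-41), so their counts are uncertain as well. Whether a leading segment stands for 1 clone cannot be read from counts per gene.

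**Figure D4:**
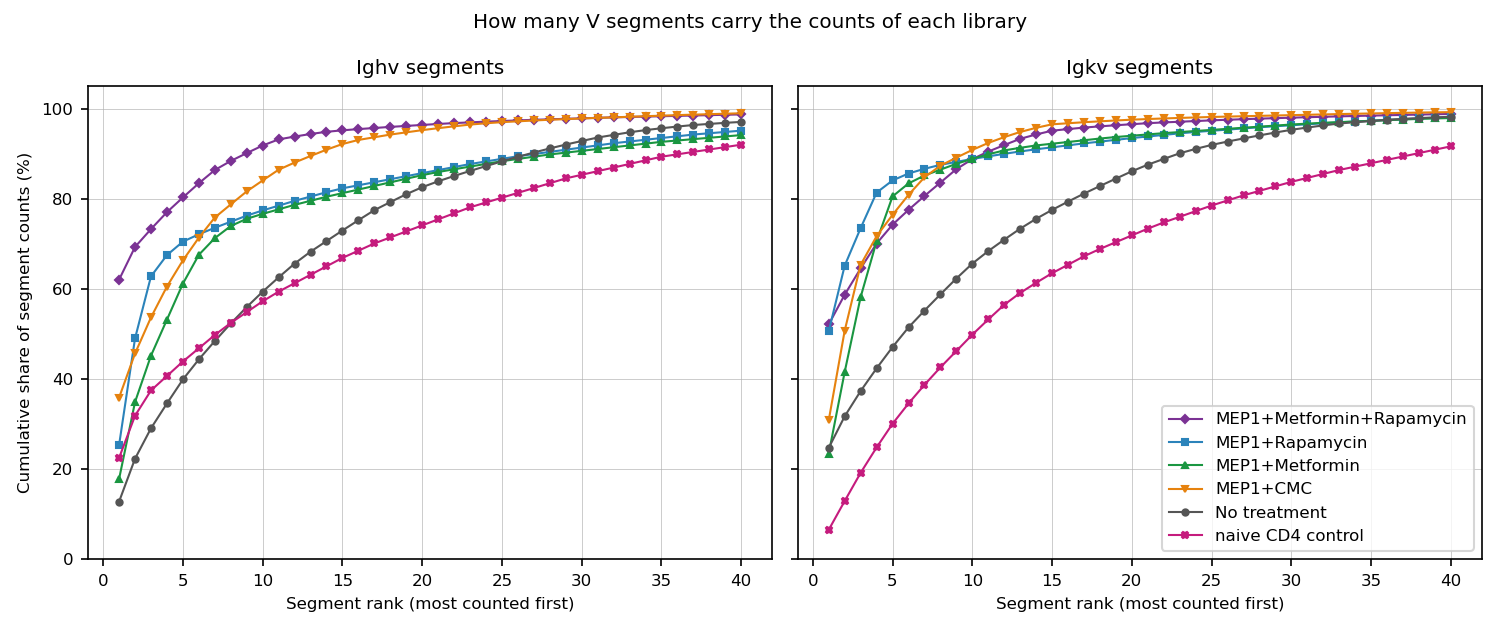
Cumulative share of heavy-chain (Ighv, left) and kappa (Igkv, right) variable counts in percent against segment rank, most counted first, with 1 line per library. A steep start means few segments: the first heavy-chain segment holds 62.0% in MEP1+Metformin+Rapamycin and 12.8% in No treatment, and the first kappa segment of the naïve CD4 control holds 6.51%.

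Set against the naïve CD4 control, No treatment was lower in 8 of 12 B-cell genes and higher in Jchain and Igkc. The plasma-cell and immunoglobulin genes did not move together, with 2 of 11 higher, 1 lower and a median log2 ratio of -0.06. A ratio of TMM CPM passed the size rule when it was at least 2-fold and its counting interval excluded no change. By this rule 12 of 28 genes differed, 3 higher and 9 lower, against 24.0% of all 12838 genes tested (16.4% higher and 7.54% lower). Scaled by library totals instead, 9 genes were higher and 9 lower. The 9 lower were Cd79a (log2 ratio -2.56, interval -2.75 to -2.38), Cd79b (-1.82), Ms4a1 (-2.85), Cr2 (-2.74), Fcer2a (-3.73), Blk (-2.78), Cd72 (-1.42), Spib (-2.86) and Ighd (-3.04). The 3 higher were Jchain at 4.08 (3.76 to 4.41), Igkc at 2.56 and H2-Eb1 at 1.37. The other 16 lay between -0.98 and 0.98. The median over the 28 genes was 0.11 and over all genes 0.08. Of 26 further B-cell genes tested, 8 were higher and 5 lower, led by the signalling adaptor Pik3ap1 (4.07), the surface enzyme Cd38 (3.86) and Ly6d (-3.10). Of 11 further plasma-cell genes, 5 were higher and 1 lower, led by Slamf7 (2.81), the elongation factor Ell2 (2.34) and Irf4 (1.85), a transcription factor that activated T cells also make. Among 8 further class II genes, H2-DMb1 was higher (2.62) and the loading genes H2-Oa (-2.12) and H2-DMb2 (-1.32) were lower. All 16 macrophage genes were higher, led by Marco (6.84), the lysozyme gene Lyz2 (6.71) and Cd14 (6.05), where Marco and Cd14 were set against a floor of 3 counts per library because the naïve CD4 control had 0. Dendritic-cell genes had 5 of 7 higher and 1 lower, led by Siglech (4.32, on the same floor), Itgax (3.87) and Zbtb46 (2.26).

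With all 5 transferred libraries set against the naïve CD4 control in the quasi-likelihood model, 2 of 28 genes were lower and 0 higher, against 9.81% of all genes called (4.19% higher and 5.62% lower). Ighd had a log2 fold change of -3.22 (SE 0.38, adjusted p = 0.0016), was lower in 5 of 5 libraries and was called under all 11 alternatives run. Cd79a had a log2 fold change of -2.19 (SE 0.54, adjusted p = 0.041) and was also lower in 5 of 5, but it was called under 6 of the 11 alternatives only. Without MEP1+CMC its adjusted p was 0.081, without MEP1+Metformin 0.051 and without MEP1+Rapamycin 0.071, over a range of 0.0013 to 0.091 in all. In the same model 5 of the 28 had an unadjusted p below 0.05, and the share of all genes below that level was not counted. Jchain had the highest log2 fold change of the 28 at 3.34 (SE 1.5, adjusted p = 0.22, called under 2 of the 11 alternatives). The median over the 28 genes was -0.31 and that over all genes 0.06. Of the further B-cell genes 4 of 26 were higher and 0 lower, namely Fcrl1 (2.08), Cd38 (3.84), Cd83 (2.11) and Pik3ap1 (4.22). Of the further plasma-cell genes 2 of 11 were higher, namely Irf4 (1.77) and Ell2 (2.30), and of the further class II genes 2 of 8 were lower, namely H2-DMb2 (-1.35) and H2-Oa (-1.37). Several of these calls were lost under some of the 11 alternatives: Irf4 was called under 9, Cd38 under 7, H2-DMb2 under 7 and H2-Oa under 6, with adjusted p up to 0.057, 0.12, 0.14 and 0.22. None of the 16 macrophage genes was called, although their median log2 fold change was 3.80. They summed to 430 TMM CPM (MEP1+Rapamycin) to 3342 TMM CPM (No treatment) in the transferred libraries, against 65.8 in the naïve CD4 control. The naïve CD4 control is likewise 1 library whose spread was taken from the others, and with library totals in place of TMM the called genes of the whole table were 2482 higher and 190 lower, against 538 and 721.

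MEP1+CMC set against No treatment was lower in 4 of 5 class II genes, and higher in the B-cell surface genes Cr2 and Cd22. It differed in 11 of 28 genes by the size rule, 4 higher and 7 lower, against 11.5% of all genes (7.76% higher and 3.72% lower). The B-cell genes Cr2 (2.12, interval 1.73 to 2.53), Cd22 (1.54) and Blk (1.05) were higher, as was Iglc1 (1.19). The 7 lower were Blnk (-1.50), H2-Aa (-1.56), H2-Ab1 (-1.49), H2-Eb1 (-1.44), Cd74 (-1.38), Igha (-1.32) and Ighd (interval -1.38 to -0.64). The other 17 lay between -0.72 and 0.83. The median over the 28 was -0.29 and over all genes -0.04. Further B-cell genes had 2 of 26 higher and 4 lower, led by Ly86 (-2.07), Pld4 (-1.80) and Mef2c (1.44), and Ly86 and Pld4 are also made by macrophages and dendritic cells. Further plasma-cell genes had 3 of 11 higher, namely Prdm1 (2.02), Slamf7 (1.82) and Derl3 (1.03), and Prdm1, the master regulator of plasma cells, also acts in effector T cells. H2-DMb1 (-1.66) was lower among 8 further class II genes. Of 4 further immunoglobulin constant genes Ighg3 (2.64) was higher, and Ighg2c (-2.48) and Iglc3 (-1.49) were lower. All 16 macrophage genes were lower, led by Marco (-3.52), Cd14 (-2.80) and Mrc1 (-2.58). Of 7 dendritic-cell genes Itgax (-1.72) was lower and Zbtb46 (1.12) higher.

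The inhibitor libraries were each set against MEP1+CMC, and the 3 comparisons share that library. MEP1+Metformin was lower than MEP1+CMC in 7 of 11 plasma-cell and immunoglobulin genes and in 4 of 12 B-cell genes. In MEP1+Metformin, 0 of 28 genes were higher and 11 lower, against 5.63% of all genes (2.66% higher and 2.98% lower). Of plasma-cell and immunoglobulin genes, Igha was lower at -8.00 (interval -10.28 to -6.44, from 3 counts against 890), with Iglc2 at -2.66, Iglc1 at -2.50, Jchain at -2.36, Igkc at -1.83, Ighg1 at -1.80 and Mzb1 at -1.56. Of B-cell genes, Fcer2a (-2.07), Cr2 (-1.49), Blk (-1.41) and Ms4a1 (-1.31) were lower. The other 17 lay between -0.84 and 0.59, and Ighd was the only one of the 28 above 0. The median was -0.71 over the 28 and -0.04 over all genes. Of 26 further B-cell genes 1 was higher and 8 lower, led by Mef2c (-1.35), Cd24a (-1.34) and Ly6d (-1.27). Of 4 further immunoglobulin constant genes 3 were lower, namely Ighg3 (-7.98), Ighg2c (-5.71) and Ighg2b (-4.06). Derl3 (-1.56), which clears misfolded secretory proteins, and Prdm1 (-1.21) were lower among 11 further plasma-cell genes. None of 8 further class II genes passed the rule. Among the 16 macrophage genes Marco (2.16) and Cd14 (1.04) were higher and Lyz2 (-1.20) lower, and of 7 dendritic-cell genes Siglech (1.43) was higher and Irf8 (-1.04) lower.

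MEP1+Rapamycin held less of a few receptor and immunoglobulin transcripts, while Cd79a was close to its level in MEP1+CMC. In MEP1+Rapamycin, 1 of 28 genes was higher and 6 lower, a share to be read against 11.0% of all genes (5.15% higher and 5.83% lower). Scaled by library totals or by DESeq2 size factors, 2 were higher and 5 lower. Cd72 was higher at 1.04 (0.91 to 1.18). Cr2 (-3.05, interval -3.75 to -2.42), Blk (-1.21), Cd22 (-1.01), Igha (-2.55), Igkc (-1.53) and Sdc1 (-1.19) were lower. The other 21 lay between -0.84 and 0.90, with Cd79a at -0.01 (-0.23 to 0.22). The median was -0.42 over the 28 and -0.13 over all genes. Further B-cell genes had 2 of 26 higher and 5 lower, led by the transcription factor Bcl11a (1.89), Cd38 (-1.83) and Mef2c (-1.83). Prdm1 (-2.46), Slamf7 (-2.18) and Derl3 (-1.63) were lower among 11 further plasma-cell genes. None of 8 further class II genes passed the rule. Of macrophage genes Lyz2 (-2.02) was lower and Cd14 (1.17) higher, and of dendritic-cell genes Siglech (2.17) was higher while Irf8 (-1.28) and Xcr1 (-1.09) were lower.

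MEP1+Metformin+Rapamycin stood on the other side, with 13 of 28 genes higher than in MEP1+CMC and 0 lower, against 6.7% of all genes (3.01% higher and 3.68% lower). The B-cell genes among them were Fcer2a (2.23), Ms4a1 (1.73, interval 1.49 to 1.99), Blk (1.59), Cd79b (1.25), Blnk (1.23), Cd79a (1.18, interval 1.01 to 1.35), Spib (1.17) and Cr2 (1.09). The immunoglobulin genes were Igha (2.89, interval 2.79 to 2.99), Iglc1 (2.16), Ighg1 (1.93), Ighd (1.31) and Iglc2 (1.22). Ighg1 reached 2 TMM CPM in MEP1+Metformin+Rapamycin only, so it passed the filter through the library in which it was called higher. Its call is therefore partly set by the filter. The other 15 lay between -0.71, for Igkc, and 0.90. The median was 0.83 over the 28 and -0.01 over all genes. Of 26 further B-cell genes 6 were higher and 2 lower, with Fcrl5 at 1.81 and Bcl11a at 1.28. Prdm1 (-1.26) and Derl3 (-1.14) were lower among 11 further plasma-cell genes, and none was higher. None of 8 further class II genes passed the rule. Of macrophage genes Mrc1 (1.11) was higher and Lyz2 (-1.44) lower, and of dendritic-cell genes Irf8 (-1.44), Xcr1 (-1.13) and Zbtb46 (-1.09) were lower. The sum of 5 defining B-cell markers was 46.6 TMM CPM in MEP1+Metformin+Rapamycin, 17.5 in MEP1+Rapamycin and 10.6 in MEP1+Metformin, against 18.2 in MEP1+CMC.

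**Figure D5:**
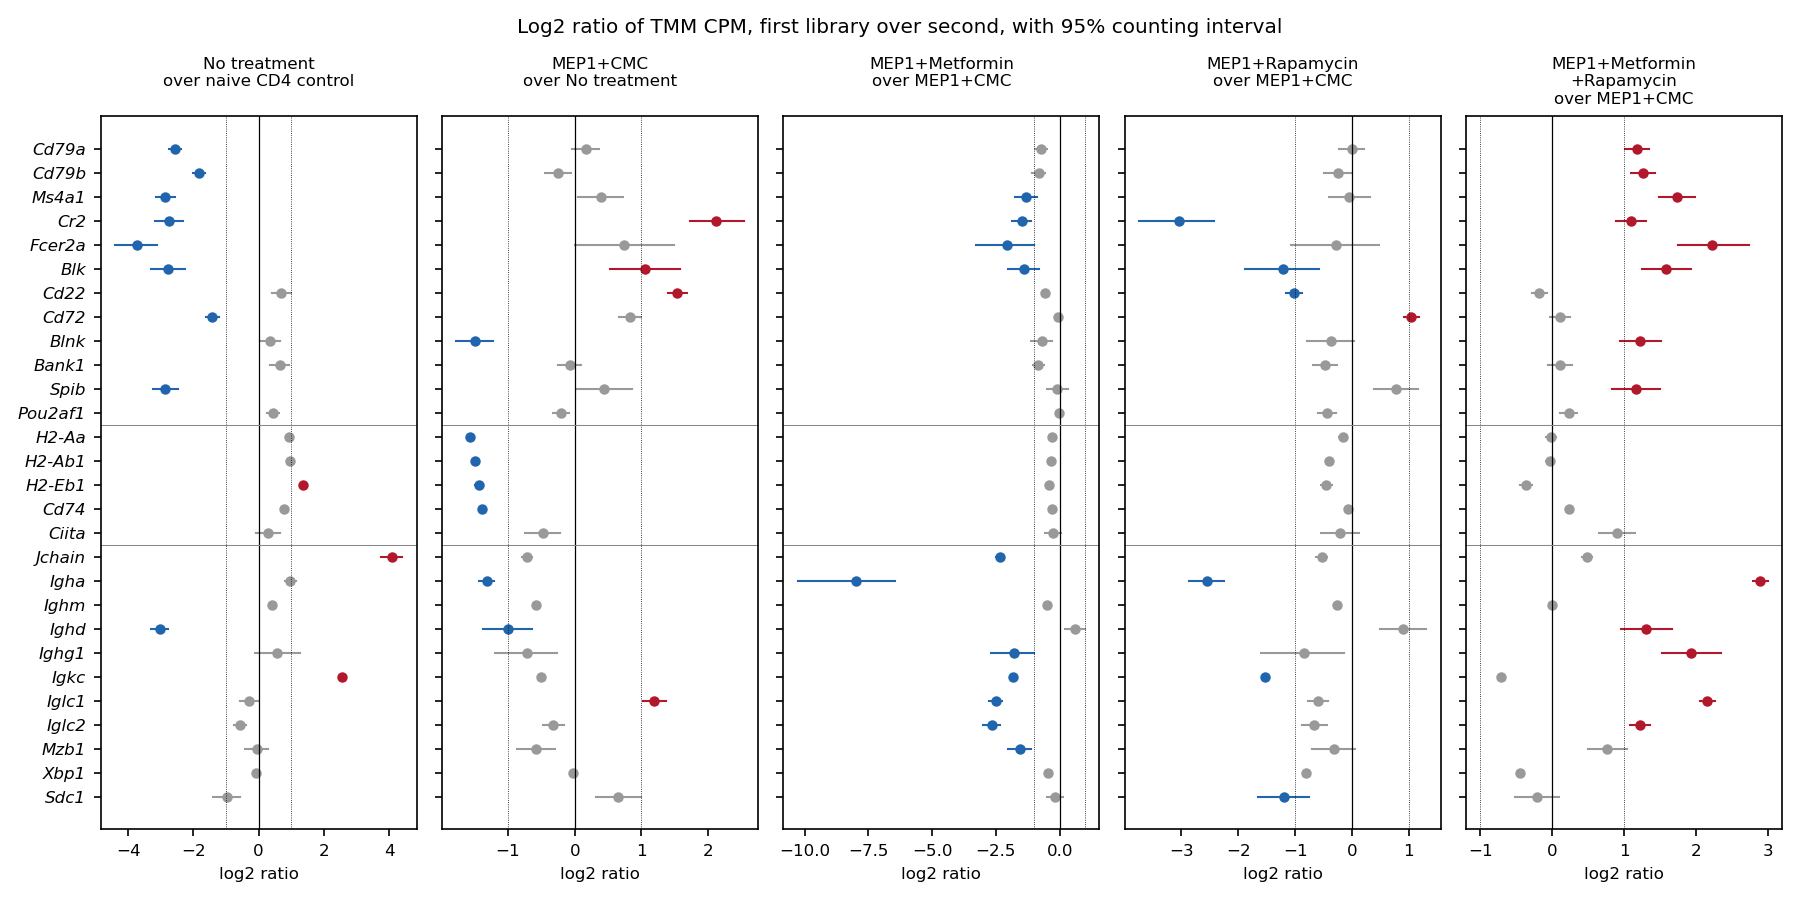
Log2 ratio of TMM CPM, first library over second, for the 28 genes that passed the filter in 5 comparisons, with 95% counting intervals and dotted lines at a 2-fold difference. Red points are higher and blue points lower by the size rule, grey points neither, and each panel has its own scale. MEP1+Metformin has 11 lower and 0 higher genes, and MEP1+Metformin+Rapamycin 13 higher and 0 lower.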

How the data were processed

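RNA from 6 sorted mouse CD4 T-cell samples, 1 per condition, was sequenced from ultra-low-input libraries, per the labels' protocols. The deposited files hold whole-number read counts, summed over the exons of each gene and not normalized. Per the submitters' processing notes the authors aligned reads to GRCm38 with STAR 2.5.2b after trimming (Trimmomatic 0.36) and counted them with featureCounts (Subread 1.5.2). How strand and multiply aligned reads were treated is not given in the sources used here, and this bears on near-identical immunoglobulin genes. Symbols came from GENCODE M21, which holds 48970 of 49315 identifiers. Coordinates are those of the deposited count tables.

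Total counts per library were 50177994 (MEP1+Metformin+Rapamycin), 32321936 (MEP1+Rapamycin), 44374250 (MEP1+Metformin), 57289670 (MEP1+CMC), 60622310 (No treatment) and 26139000 (naïve CD4 control). Counts were scaled by TMM over all genes, with factors of 1.11, 1.15, 1.14, 1.02, 0.949 and 0.711 in that order. Genes with at least 2 TMM CPM and 10 counts in 1 library were kept (12838). Pair ratios carry exact 95% Clopper-Pearson intervals, with a floor of 3 counts per library for a count of 0. Sums carry exact Poisson intervals. Such intervals and floors cover counting error only, as PCR copies cannot be recognised without molecular identifiers. Tests across libraries used edgeR 4.0.16 under R 4.3.3 (glmQLFit, robust, current estimator, and glmQLFTest) with Benjamini-Hochberg adjustment, called below 0.05, with 4 residual degrees of freedom for transferred against naive and 3 for MEP1 against No treatment. The spread in each model also holds treatment differences, so its p-values speak for these 6 libraries only. Each SE was obtained by dividing the size of the log2 fold change by the square root of F. DESeq2 1.42.0 was an alternative. The remaining steps ran in Python 3.11.15 (pandas 2.3.3, numpy 2.4.6, scipy 1.17.1). Both procedures were tested on simulated data.

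The 31 genes and the lists of further genes were chosen with earlier results of these data known, and the lists were written from general knowledge. All 31 are named. Of each further list, up to 3 genes with the largest absolute ratio past the size rule are named per comparison, and of variable segments the leader of each library. A gene that this rule would also name is not reported here. Genes of models outside the 31, further isotypes and single ratios between genes were named after their values were seen. The alternatives were other scalings, filters, fold sizes, tools and left-out libraries.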

Additional observations from a re-analysis of the deposited data

How the results depend on the processing

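No paired analysis was possible because each condition has 1 library, so the groups share fewer than 2 replicate numbers. No single gene of the 28 tested reversed direction past a threshold. In the pairs none could, because a call needs a 2-fold ratio and no scaling moved a log2 ratio by more than 0.42. Other filters and fold sizes leave the ratios unchanged, and a gene that stays in under another filter keeps its call by construction. The counts of kept calls below include such combinations. Over 970 gene and setting combinations of the 5 pairs, 902 kept their side of the threshold, 32 lost a call and 36 gained one. Over 584 of the 2 models, 560 kept it, 5 lost a call and 19 gained one. A 3-fold size left 7 genes for MEP1+Metformin, 2 for MEP1+Rapamycin and 6 for MEP1+Metformin+Rapamycin, each over MEP1+CMC, and 1 for MEP1+CMC over No treatment. A 1.5-fold size gave 19 for No treatment over the naïve CD4 control and 13 for MEP1+Rapamycin over MEP1+CMC. Without the filter on low counts, 14, 12, 12, 7 and 16 genes passed in the 5 pairs, taken in the order in which they were described.

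For transferred against naive, the 2 called genes became 1 with library totals, 7 with the DESeq2 Wald test and 1 to 6 when a library was left out (6 without No treatment, 6 without MEP1+Metformin+Rapamycin, 1 without MEP1+CMC and 1 without MEP1+Rapamycin). Library totals turned the split of all called genes from 538 higher and 721 lower to 2482 higher and 190 lower, and they move the median of all genes by 0.42 for No treatment over the naïve CD4 control and by 0.11 to 0.16 for the other pairs. DESeq2 size factors move it by 0.13 for MEP1+Rapamycin over MEP1+CMC. The DESeq2 Wald test called 2146 genes higher and 1582 lower in this model, the older edgeR estimator 1257 and 1030, and the fit without No treatment 1488 and 1510, without MEP1+Metformin 341 and 405, and without MEP1+Metformin+Rapamycin 327 and 366. For MEP1 against No treatment, 77 genes were called higher and 167 lower, against 877 and 272 with the DESeq2 Wald test, 42 and 94 with library totals, 141 and 249 without the filter and 30 and 101 without MEP1+Metformin. Of the 28 genes, those called there were 4 in each of these except DESeq2, with 6.

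The summed B-cell level of the naïve CD4 control over MEP1+Metformin was 2.35-fold, 1.47-fold with library totals, 0.752-fold per count of CD4 T-cell identity genes, 2.06-fold per count of those genes without Trbc1 and Trbc2, and 7.35-fold without Cd22, Cd72, Bank1 and Pou2af1. The class II sum of No treatment over MEP1+Metformin was 3.36-fold, and 2.81-fold, 2.31-fold and 2.63-fold under the first 3 of these. The plasma-cell and immunoglobulin sum was 2.32-fold, and 1.94-fold, 1.60-fold and 1.82-fold, and 5.49-fold without Ighm and Xbp1. The alternatives without named genes and the older edgeR estimator were chosen after seeing the data. Other causes were not tested. Low counts limit Igha in MEP1+Metformin (3 counts) and the switched isotypes there.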
